A study of Mus musculus with 4 samples.

Results

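Synaptic adhesion and organizer genes encode the surface and secreted proteins that join the presynaptic to the postsynaptic membrane. The genes described here are the rows of the deposited expression table whose symbol is a numbered member of the Nlgn, Nrxn, Lrrtm, Slitrk, Lrfn, Flrt, Cbln, Cadm, Elfn, Lingo or Ntng families, or Ptprf, Ptprs or Ptprd. The rule, which uses names only, found 43 of 23453 genes in 12 families. RNA came from primary hippocampal neurons of newborn C57BL/6NCrl mice, grown in culture and treated on day 12 in vitro. The 2 control libraries received the solvent DMSO and kept basal synaptic activity. The 2 AP bursting libraries received 50 µM bicuculline, which blocks GABA-A receptors and so sets off bursts of action potentials, for 4 h. The series text gives 2 independent experiments on separate cell preparations, and the labels name no transgene or deletion.

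Presynaptic neurexins (Nrxn) and LAR-type receptor phosphatases (Ptprf, Ptprs, Ptprd) act as hubs that bind many partners across the cleft. Neuroligins and Lrrtm proteins bind neurexins, while Slitrk and some Lrfn proteins bind the LAR-type phosphatases. Cerebellins (Cbln) are secreted bridges between neurexins and postsynaptic delta-type glutamate receptors, and Flrt proteins bind latrophilins and Unc5 receptors. In hippocampal neurons these contacts are known to specify where excitatory and inhibitory synapses form and how strong they become.

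The table holds 1 mean per group, in normalized reads. Each mean was split into the whole read counts of its 2 libraries, which for every group are a deeper and a shallower one. Libraries of like depth were paired across the groups, deep with deep and shallow with shallow, because they deviate from their group means together. The labels do not give this pairing. Values of a group's libraries are given with the deep one first. Reads of the resolved genes summed to 20954659 (deep) and 13337809 (shallow) for control and to 25517589 and 13202532 for AP bursting. These sums are not full depths and cover different genes in the groups, because many abundant genes stayed unresolved. The resolved share of signal was 70.2% for control and 82.6% for AP bursting. Total-read scaling instead used the reads of genes resolved in all 4 libraries, the same genes in both groups. Of the 43 members, 40 were resolved in all 4 libraries. The activity genes Fos, Fosb, Npas4, Arc, Egr1, Nr4a1, Bdnf and Homer1 all rose in the authors' deposited table (8 of 8 past an adjusted p of 0.05). Among 5 neuron markers found in the table (Tubb3, Syn1, Snap25, Stmn2, Nefl) the deposited levels summed to 102222 normalized reads under DMSO and 123735 under bicuculline. Tubb3 was lower under bicuculline (15992 against 20881) and the others were higher, most of all Nefl (23525 against 11089). The summed level per library was 45.7 to 92.3 for 7 microglial markers, 14382 to 21655 for 7 astrocyte markers, 1057 to 1800 for 6 oligodendrocyte markers, 2339 to 5306 for 4 oligodendrocyte precursor markers and 1092 to 1552 for 6 markers of fibroblasts and vessels, with 0 of these genes past the threshold in the authors' test or in limma with or without the replicate block. The microglial marker Cx3cr1 was at 0 in the deep control library, and no other marker with all 4 libraries resolved was at 0 in any. Of 7 resolved markers of GABA neurons 3 passed as higher with limma's replicate block (Gad2, Sst and Slc32a1), and of 3 resolved markers of excitatory neurons 2 were higher, Slc17a6 among them, and 1 lower (Neurod6). The deposited levels summed to 32890 in controls and 46326 after AP bursting for 8 GABA neuron markers, and to 53634 and 59115 for 5 excitatory neuron markers. The part of these markers in the results below was not tested. In bulk RNA, fewer cells of a type and less RNA per cell cannot be told apart.

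Slitrk2, Lrrtm1, Flrt3, Slitrk4 and Lrrtm2 had the largest folds, 1.88 to 2.79 times higher after AP bursting in the authors' deposited table. The secreted organizer Cbln2 (1.64-fold) and the inhibitory-synapse neuroligin Nlgn2 (1.53-fold) followed there, and the lowest member was Lingo3 at 0.730-fold. Leucine-rich repeat organizers, the class of the first 5 and of Lingo3, made up 24 of the 43 members. The median deposited log2 fold of that class was 0.128, against 0.124 for all members. None of the 43 members passed the authors' test, which called 0.61% of all genes higher and 0% lower at an adjusted p below 0.05; the smallest adjusted p of a member was 0.926, for Slitrk2. limma without a block also called 0 of 40 resolved members (0.00989% of 20226 genes higher, 0% lower). In that fit 2 of the 40 members and 668 of all 20226 genes had an unadjusted p below 0.05. limma with the pair of libraries as a replicate block called 8 members higher and 1 lower of 40, against 6.87% of all 20226 genes higher and 6.1% lower. With 1 residual degree of freedom left by the block, limma's estimate of the prior took the variance wholly from the trend over genes. Each standard error (SE) and p-value of that fit thus reflects the trend at the gene's level, and not the spread of its own 2 pairs. The pairs were also chosen from these same values and not from labels, which can make the p-values of that fit too small. Without the trend over genes, the block fit called 0 members and 0 of all 20226 genes. There 5 of the 40 members and 3268 of all genes had an unadjusted p below 0.05. "Rose" and "fell" below refer to limma with the replicate block and its Benjamini-Hochberg adjusted p over all genes tested, unless the authors' table is named.

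**Figure D1:**
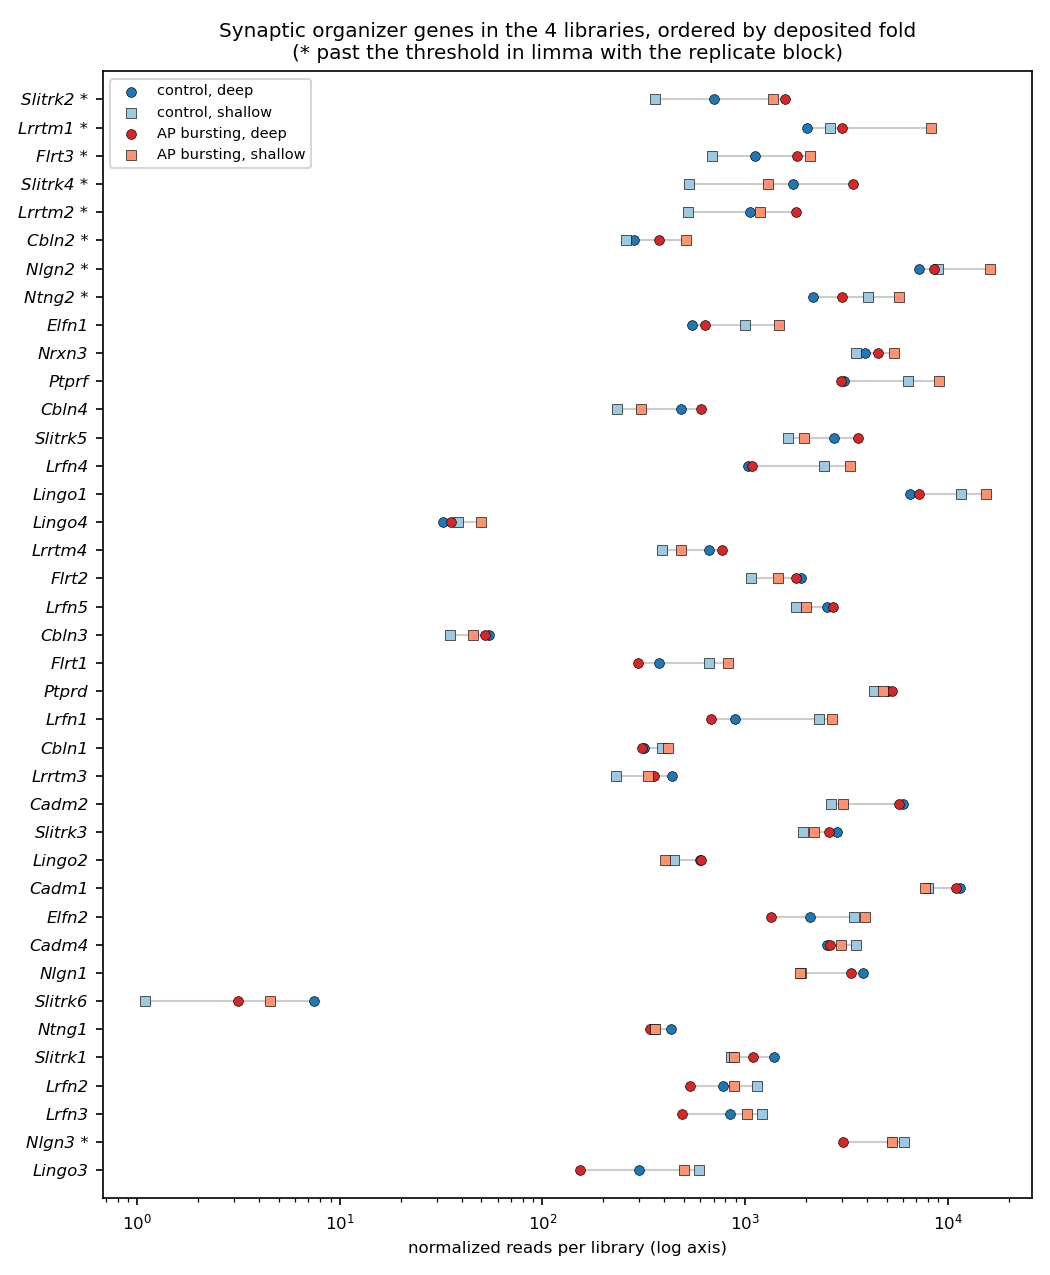
Normalized reads (log axis) of 39 resolved members in the 4 libraries, circles for the deep and squares for the shallow pair, blue for control and red for AP bursting; genes are ordered by the deposited fold and asterisks mark the 9 members past the threshold with the replicate block. The red symbols of Slitrk2 (1575 and 1373) lie above both blue ones (698 and 358). Counted over all 40 resolved members, not only those plotted, the 2 control libraries differ by more than the change with the block in 31.

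Promoter sequences of the members with the 3 largest deposited folds are shown, with the motifs of activity-regulated transcription factors that were searched in them. The RefSeq promoter table (GRCm38.p6) holds 31 of the 43 members; Slitrk4, Lrrtm2, Cbln2 and Nlgn3 have no entry. The 250 bases before each annotated start were searched on both strands for the cyclic AMP response element TGACGTCA, its core TGACG (which every full element also contains), the AP-1 site TGANTCA and the EGR site GCGTGGGCG. The lines are 5′ to 3′ and end at the base before the start, with matches in capitals. They show a start of Slitrk2 (chrX:66652909-66653158, plus strand), Flrt3 (chr2:140671477-140671726, minus strand) and Lrrtm1 (chr6:77242227-77242476, plus strand).
Slitrk2: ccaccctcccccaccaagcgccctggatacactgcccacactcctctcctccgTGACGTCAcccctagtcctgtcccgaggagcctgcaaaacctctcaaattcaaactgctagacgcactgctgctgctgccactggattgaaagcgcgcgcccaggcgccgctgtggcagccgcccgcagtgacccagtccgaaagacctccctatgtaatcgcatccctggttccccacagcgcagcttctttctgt
Flrt3: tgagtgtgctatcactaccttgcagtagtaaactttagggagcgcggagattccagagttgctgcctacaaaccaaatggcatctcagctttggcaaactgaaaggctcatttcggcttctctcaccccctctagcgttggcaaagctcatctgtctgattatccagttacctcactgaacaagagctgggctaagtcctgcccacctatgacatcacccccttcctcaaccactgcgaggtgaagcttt
Lrrtm1: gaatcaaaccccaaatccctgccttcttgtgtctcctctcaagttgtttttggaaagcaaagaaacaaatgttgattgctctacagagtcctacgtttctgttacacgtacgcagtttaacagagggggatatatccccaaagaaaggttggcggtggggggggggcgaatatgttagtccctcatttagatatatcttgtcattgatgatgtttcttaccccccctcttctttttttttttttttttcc
The full element occurred in 1 of the 40 member promoters, this start of Slitrk2, against 1.55% of all 32851 promoters. The core occurred in 7 member promoters (17.8% of all promoters), the AP-1 site in 3 (6.75%) and the EGR site in 0 (0.536%). A match is a description of these letters and not a binding site. The other annotated start of Slitrk2, Flrt3, Lrrtm1, Nlgn2 and Ntng2 held no match in this window.

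Among the Slitrk genes, whose products bind LAR-type phosphatases from the postsynaptic side, 2 of 6 rose. Slitrk2 (ENSMUSG00000036790) stood at 698 and 358 normalized reads in the deep and shallow control library and at 1575 and 1373 after AP bursting. Both AP bursting libraries were higher than both controls. Its log2 fold was 1.55 ± 0.19 (SE, n = 2 libraries per group), with an adjusted p of 1.03e-13 by limma with the block, and 1.17 and 1.94 in the deep and shallow pair. Slitrk4 (ENSMUSG00000046699) stood at 1726 and 532 normalized reads under DMSO and 3390 and 1305 under bicuculline. Here the groups overlapped, since the deep control library exceeded the shallow AP bursting one, but both pairs moved up (log2 folds of 0.97 and 1.29). The log2 fold with the block was 1.13 ± 0.18 (SE, n = 2; limma adjusted p = 2.49e-08). The other 4 Slitrk genes gave no call. Slitrk1 (log2 fold -0.15), Slitrk3 (0.02) and Slitrk5 (0.32) had adjusted p-values of 0.728, 0.963 and 0.245 in the limma block fit. Slitrk6 was almost silent, at 1.09 to 7.49 normalized reads per library. Per kilobase of exon, Slitrk2 made up 5.23% of the Slitrk signal in the deep control and 9.72% in the deep AP bursting library, and 4.55% and 13.0% in the shallow ones; Slitrk3 and Slitrk5 together held the most in each.

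Both Lrrtm genes that rose encode postsynaptic ligands of neurexins. Lrrtm1 (ENSMUSG00000060780) stood at 2021 and 2622 normalized reads in the deep and shallow control library and at 2998 and 8316 after AP bursting. The groups did not overlap, and the shallow AP bursting library was far above the rest. Its log2 fold was 1.117 ± 0.16 (SE, n = 2; limma block adjusted p = 8.44e-10), and it differed between the deep pair (0.57) and the shallow pair (1.67). Lrrtm2 (ENSMUSG00000071862) stood at 1062 and 525 normalized reads under DMSO and 1788 and 1190 under bicuculline. Its groups did not overlap either, and its log2 fold was 0.96 ± 0.19 (SE, n = 2; limma block adjusted p = 1.06e-05), with 0.75 and 1.18 in the deep and shallow pair. Lrrtm3 and Lrrtm4 had log2 folds of 0.11 and 0.26 in that fit, neither past the threshold (limma adjusted p = 0.843 and 0.509). Per kilobase of exon, Lrrtm1 held 63.3% of the Lrrtm signal in the deep control and 66.2% in the deep AP bursting library, and 80.9% and 88.6% in the shallow ones.

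Flrt3, a ligand of latrophilins and Unc5 receptors, was the member of its family that rose. Flrt3 (ENSMUSG00000051379) stood at 1118 and 688 normalized reads in the deep and shallow control library and at 1803 and 2090 after AP bursting. Both AP bursting values lay above both controls. The log2 fold was 1.15 ± 0.18 (SE, n = 2; limma block adjusted p = 2.5e-08), with values of 0.69 (deep pair) and 1.60 (shallow pair). Flrt1 and Flrt2 had log2 folds of -0.01 and 0.18 with the block (limma adjusted p = 0.988 and 0.621), and each moved in opposite directions in the pairs. Its share of the Flrt signal per kilobase of exon was 42.7% and 56.8% in the deep control and AP bursting library, and 36.0% and 56.6% in the shallow ones. The difference between Flrt3 and its relatives was not tested.

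In the mouse annotation (GENCODE M21, GRCm38) 7 members lie inside a protein-coding gene on the opposite strand, Lrrtm1 in Ctnna2, Lrrtm2 in Ctnna1, Lrrtm3 in Ctnna3, Flrt3 in Macrod2, Flrt1 in Macrod1, Lrfn1 in Samd4b and Lrfn4 in Pcx. Reads of a member and its host cannot be told apart where the genes overlap, since library preparation was not strand-specific; exons overlap for Lrrtm2 and Ctnna1. The hosts had log2 folds of 0.21 (deep pair) and 0.22 (shallow pair) for Ctnna2, 0.21 and 0.22 for Ctnna1, and 0.16 and 0.02 for Macrod2. These are below the folds of Lrrtm1, Lrrtm2 and Flrt3 in both pairs. The part of host reads in the values of these members was not tested.

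The neuroligins, postsynaptic partners of neurexins, moved in different directions. Nlgn2 (ENSMUSG00000051790), known from inhibitory synapses, stood at 7188 and 8981 normalized reads in the deep and shallow control library and at 8551 and 16130 after AP bursting. The deep AP bursting library lay below the shallow control, so the groups overlapped, and both pairs moved up. It rose with a log2 fold of 0.55 ± 0.15 (SE, n = 2; limma block adjusted p = 0.00328), with 0.25 and 0.84 in the deep and shallow pair. Nlgn3 (ENSMUSG00000031302), found at excitatory and inhibitory synapses, stood at 5289 and 6116 normalized reads under DMSO and 3034 and 5299 under bicuculline. The deep AP bursting library was low and the shallow one lay just above the deep control. Nlgn3 was the 1 member that fell, with a log2 fold of -0.50 ± 0.16 (SE, n = 2; limma block adjusted p = 0.0158), and with -0.80 and -0.21 in the deep and shallow pair. Its exons overlap those of the same-strand gene Gm21986, which the authors' table does not hold. Nlgn1 (ENSMUSG00000063887), known from excitatory synapses, stood at 3832 and 1892 normalized reads under DMSO and 3335 and 1863 under bicuculline, a log2 fold of -0.11 ± 0.17 (SE, n = 2; limma block adjusted p = 0.779).

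As a ratio within each library, which no scaling between libraries can change, Nlgn2 over Nlgn3 was 1.36 and 1.47 in the deep and shallow control library and 2.82 and 3.04 after AP bursting. The log2 change of this ratio was 1.052 in both pairs, although each gene alone changed by different amounts in the pairs. It was picked from 6 such ratios with their values known, and was not tested. Per kilobase of exon, Nlgn2 made up 59.2% of neuroligin signal in the deep control and 72.0% in the deep AP bursting library, and 66.0% and 79.7% in the shallow ones. The share of Nlgn3 per kilobase was 27.2% in the deep control and 15.9% in the deep AP bursting library, and 28.0% and 16.3% in the shallow ones. That of Nlgn1 was 13.6% and 12.1% in the deep pair and 5.99% and 3.97% in the shallow pair.

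**Figure D2:**
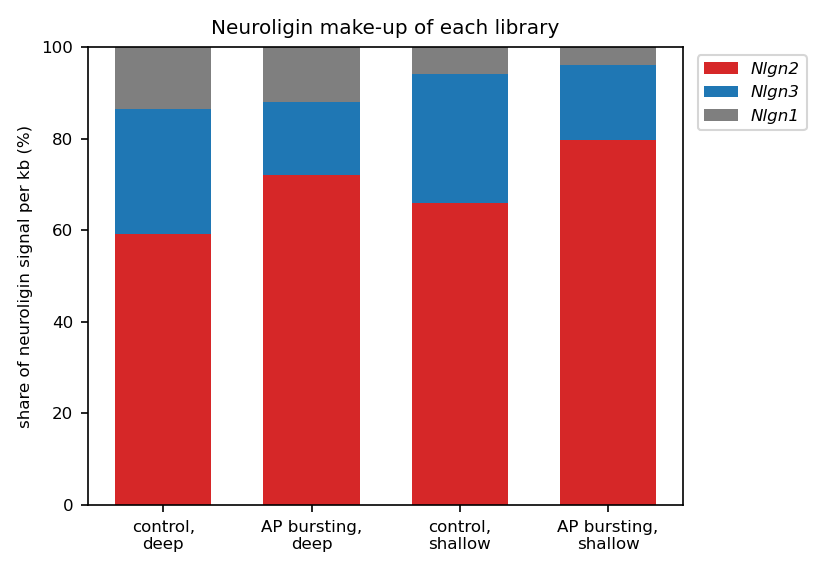
Share of Nlgn2, Nlgn3 and Nlgn1 in the summed neuroligin signal per kilobase of exon (%), 1 bar for each of the 4 libraries, the deep pair on the left and the shallow pair on the right. In both pairs the Nlgn2 part is larger after AP bursting (72.0% against 59.2%, and 79.7% against 66.0%) and the Nlgn3 part smaller.

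Of the 6 presynaptic hubs 4 were tested with the block, and none was called; Nrxn2 and Ptprs were not tested there. Nrxn3 (ENSMUSG00000066392) was nearest, at 3915 and 3512 normalized reads in the deep and shallow control library and 4521 and 5430 after AP bursting. Its groups did not overlap, and its log2 fold was 0.42 ± 0.16 (SE, n = 2; limma block adjusted p = 0.066). The mean of Nrxn2 (ENSMUSG00000033768) was 14860 normalized reads under DMSO and 18378 under bicuculline in the authors' deposited table (1.24-fold, adjusted p = 1). Its control mean fitted 2 pairs of read counts and was left unresolved; the candidate control levels were 9402 and 20319, or 7605 and 22116, for the deep and shallow library, against 8674 and 28082 after AP bursting.

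Of the LAR-type phosphatases, Ptprd (ENSMUSG00000028399) stood at 5087 and 4337 normalized reads in the deep and shallow control library and at 5336 and 4797 after AP bursting. Its groups overlapped and the log2 fold was 0.11 ± 0.16 (SE, n = 2; limma block adjusted p = 0.771). Ptprf (ENSMUSG00000033295) stood at 3080 and 6350 normalized reads under DMSO and 2989 and 9064 under bicuculline. It differed more between the libraries of a group than between groups, and its pairs pointed in opposite directions (log2 folds of -0.04 and 0.51; limma block adjusted p = 0.406). Ptprs (ENSMUSG00000013236) had 18002 normalized reads under DMSO and 19898 under bicuculline in the authors' deposited table (1.11-fold, adjusted p = 1). Its candidate control levels were 13110 and 22894, or 11313 and 24691, against 9769 and 30027 after AP bursting, so that the deep pair was lower and the shallow pair higher under either.

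Of the secreted cerebellins, 1 of 4 rose. Cbln2 (ENSMUSG00000024647) stood at 283 and 258 normalized reads in the deep and shallow control library and at 377 and 510 after AP bursting. Its groups did not overlap and its log2 fold was 0.70 ± 0.22 (SE, n = 2; limma block adjusted p = 0.0174). Cbln1, Cbln4 and the weakly detected Cbln3 (under 50 in both group means) had log2 folds of 0.03, 0.35 and 0.15 (limma block adjusted p = 0.961, 0.346 and 0.862). Of the netrin-G genes, which encode lipid-anchored presynaptic ligands, Ntng2 rose and Ntng1 gave no call. Ntng2 (ENSMUSG00000035513) stood at 2166 and 4061 normalized reads under DMSO and 3021 and 5725 under bicuculline. The groups overlapped, but the change was nearly equal in the deep and shallow pair (log2 folds of 0.48 and 0.50), and the log2 fold was 0.49 ± 0.16 (SE, n = 2; limma block adjusted p = 0.027). The exons of Ntng2 overlap the same-strand gene 6530402F18Rik, which stood lower at 12.0 and 64.5 normalized reads under DMSO and 40.9 and 142 under bicuculline. The log2 folds of 6530402F18Rik were 1.69 (deep pair) and 1.13 (shallow pair), and its part in the Ntng2 values was not tested. Ntng1 had a log2 fold of -0.16 (limma block adjusted p = 0.748).

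The Lrfn and Lingo genes gave no call in either direction. Some Lrfn proteins bind LAR-type phosphatases and some bind postsynaptic scaffolds, while Lingo1 is known from the Nogo receptor complex. Lingo3, Lrfn3 and Lrfn2 had the lowest deposited folds beside Nlgn3. Lingo3 (ENSMUSG00000051067) stood at 298 and 594 normalized reads in the deep and shallow control library and at 154 and 498 after AP bursting, a log2 fold of -0.60 ± 0.22 (SE, n = 2; limma block adjusted p = 0.051). Lrfn3 (ENSMUSG00000036957) stood at 847 and 1206 normalized reads under DMSO and 490 and 1017 under bicuculline, a log2 fold of -0.52 ± 0.19 (SE, n = 2; limma block adjusted p = 0.0578). Lrfn2 (ENSMUSG00000040490) stood at 781 and 1145 normalized reads under DMSO and 535 and 882 under bicuculline, a log2 fold of -0.46 ± 0.20 (SE, n = 2; limma block adjusted p = 0.108). Each was lower in both pairs while its groups overlapped. Under total-read scaling, where the median gene sits at a log2 fold of -0.16, these 3 passed the threshold as lower and Cbln2 and Ntng2 no longer passed as higher. That scaling called 4 of 40 members lower and 6 higher, against 1904 and 991 of all 20226 genes. Lrfn1, Lrfn4 and Lrfn5 had log2 folds of -0.09, 0.25 and 0.13, and Lingo1, Lingo2 and Lingo4 of 0.28, -0.06 and 0.25 in the block fit, with limma adjusted p-values of 0.231 to 0.910.

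The Cadm genes, immunoglobulin-type adhesion molecules that bind each other across the cleft, had 3 of 4 members tested with the block and 0 called. Cadm1 stood at 11451 and 8003 normalized reads in the deep and shallow control library and at 11022 and 7697 after AP bursting, a log2 fold of -0.06 in each pair (limma block adjusted p = 0.882). Cadm2 and Cadm4 had log2 folds of 0.07 and -0.09 (limma block adjusted p = 0.870 and 0.817). Cadm3 was not tested with the block, since its control mean was not resolved (10384 and 10856, or 8587 and 12653, against 11277 and 14283 after AP bursting). It had 10620 and 12780 normalized reads in the authors' deposited table (1.203-fold, adjusted p = 1), and its exons overlap those of Ackr1. The Elfn genes, whose products recruit presynaptic metabotropic glutamate receptors, had log2 folds of 0.38 for Elfn1 and -0.24 for Elfn2 (limma block adjusted p = 0.211 and 0.442).

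Over the whole set, 31 of 43 members had a deposited fold above 1 (50.6% of all genes with a mean of at least 1) and 12 below, with a median log2 fold of 0.12 against 0.01 for all genes with a mean of at least 1. In the resolved libraries 19 of 40 members were higher in both pairs (31.6% of all genes), 6 were lower in both (32%) and 15 moved in opposite directions. The median log2 fold of the members was 0.03 for the deep and 0.31 for the shallow libraries, against 0.01 and -0.02 for all genes. Under total-read scaling the deposited median of the members was -0.03, while the median of all genes in the block fit was -0.16. In 6 members the groups did not overlap and AP bursting was higher (12.6% of all genes), namely 5 of the 8 that rose and Nrxn3, and in 0 it was lower (11.7%). Among members with at least 50 normalized reads in either group, 7 of 40 had a deposited fold of at least 1.5 (9.52% of all such genes) and 0 had a fold at or below its inverse (8.53%). A rise of at least 1.5-fold in both pairs was seen in 4 of 37 members, Slitrk2, Slitrk4, Flrt3 and Lrrtm2 (6.11% of all such genes), and a fall of that size in both in 0 (5.07%).

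**Figure D3:**
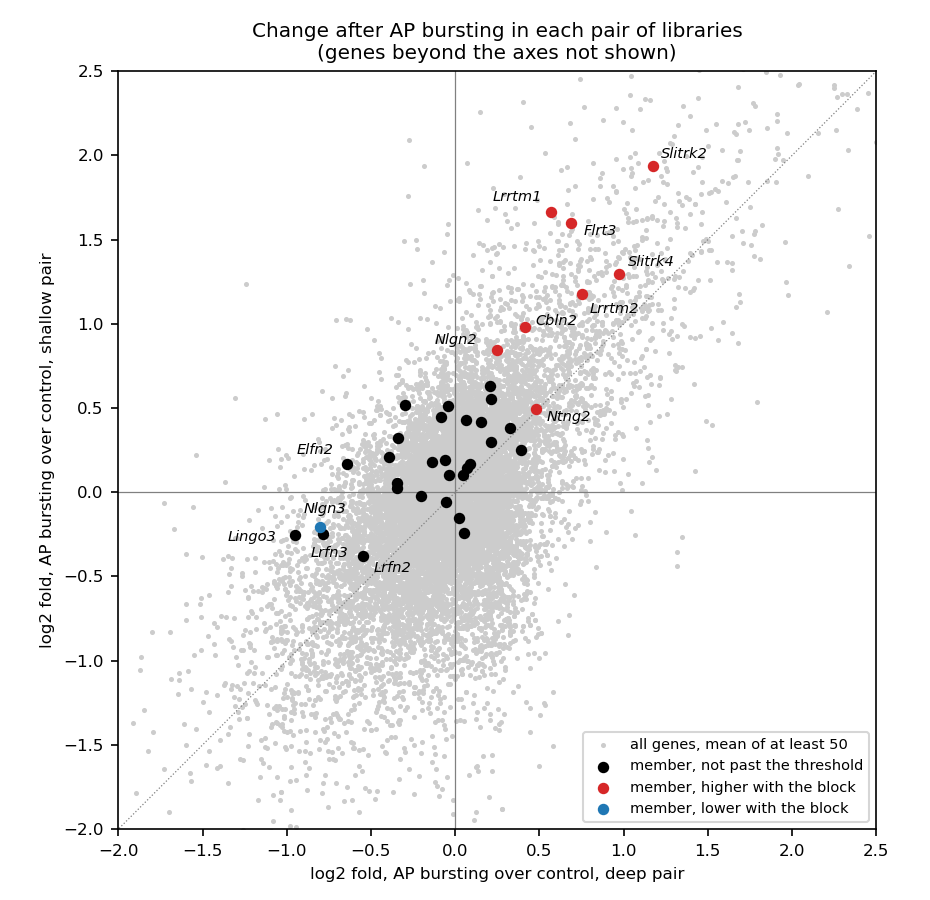
Log2 fold of AP bursting over control in the deep pair (horizontal) and the shallow pair (vertical), for all genes with a mean of at least 50 (grey) and the resolved members (red higher, blue lower, black no call with the replicate block); the dotted line marks equal change. Slitrk2 lies highest at 1.17 and 1.94, Lrrtm1 lies farther above the line at 0.57 and 1.67, and Nlgn3 lies at -0.80 and -0.21.

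The 9 called members all span less than 100 kb. By GENCODE M21 the 8 members that rose span 6.02 to 58.5 kb (median 13.4 kb) and Nlgn3 26.8 kb, against a median of 18.4 kb over all genes; Flrt3 (20.6 kb), Nlgn3 and Ntng2 (58.5 kb) lie above that median. Of the 14 members that span over 100 kb, among them Ptprd at 2271 kb, Nrxn3 at 1612 kb and Nlgn1 at 906 kb, 13 were tested and 0 called. Of the 27 tested members spanning at most 100 kb, 8 rose and 1 fell. Among all genes tested, 10.6% of those over 100 kb and 6.53% of those up to 100 kb were called higher, and 5.23% and 6.48% lower. The limit of 100 kb was chosen after the values were seen, and no test was made of it.

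**Figure D4:**
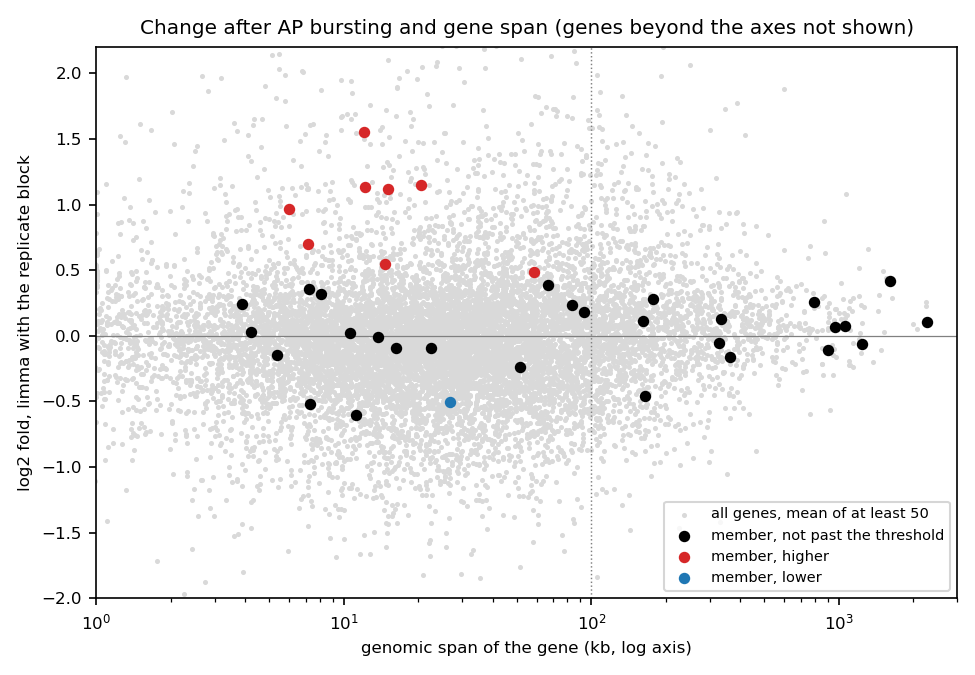
Log2 fold in limma with the replicate block against the genomic span of the gene (kb, log axis), for all genes with a mean of at least 50 (grey) and the resolved members (red higher, blue lower, black no call); the dotted line marks 100 kb. All red points lie between 6.02 and 58.5 kb, and the members to the right of the line lie between -0.46 and 0.42.

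Most of the spread within a group followed the base composition of the genes. Across 37 resolved members with a mean of at least 50, GC content of the longest transcript correlated at r = -0.91 with the log2 difference of deep minus shallow in controls and at r = -0.85 after AP bursting, against -0.72 and -0.68 across 12674 genes. These are correlations across genes that share their libraries, given as a description. Slitrk4, at 34.7% GC, was 1.70 higher on the log2 scale in the deep than in the shallow control library, while Lrfn1, at 63.5% GC, was 1.38 lower (a log2 difference of -1.38). In 35 of 40 members the difference between the libraries had the same sign in both groups. In controls it was larger than the change with the block in 31 of 40 members, and in 3 of the 9 that were called (Lrrtm2, Slitrk4 and Ntng2). After AP bursting it was larger in 33 of 40, and in 5 of the 9 (Lrrtm1, Slitrk4, Ntng2, Nlgn2 and Nlgn3). A GC correction added after seeing the data kept all 8 members higher and Nlgn3 lower with the replicate block. The block already takes out a deep-minus-shallow difference that the groups share, and the correction was not run without the block.

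**Figure D5:**
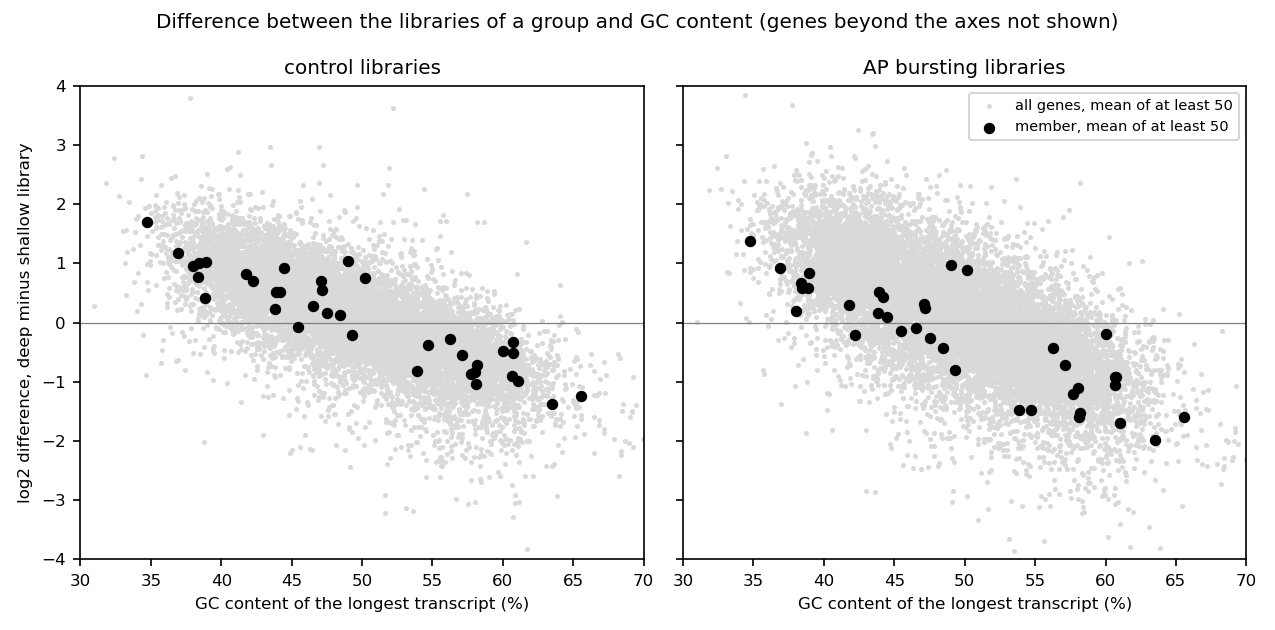
Log2 difference of the deep minus the shallow library against the GC content of the longest transcript (%), in controls (left) and after AP bursting (right), for all genes with a mean of at least 50 (grey) and 37 members (black). The members fall from Slitrk4 at 34.7% GC (1.70 in controls) to Lrfn4 at 65.6% (-1.24), along with the grey cloud.

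Partners of these genes, from lists of other synaptic organizers, were read against the same background of 6.87% higher and 6.1% lower. Of 24 resolved other transmembrane organizers 5 rose and 2 fell with the replicate block. They included Lrrc4, the postsynaptic partner of netrin-G2, which stood at 2414 and 1956 normalized reads under DMSO and 5846 and 6199 under bicuculline, a log2 fold of 1.47 ± 0.16 (SE, n = 2; limma block adjusted p = 3.37e-17). Lrrc4c, the partner of netrin-G1, had 2710 and 984 normalized reads under DMSO, 3586 and 1862 under bicuculline and a log2 fold of 0.66 (limma block adjusted p = 0.00226). Efnb2, an ephrin ligand, Igsf9b, an adhesion molecule of inhibitory synapses, and Clstn3, which binds neurexins, had log2 folds of 1.23, 1.00 and 0.76 (limma block adjusted p = 2.5e-11, 2.46e-06 and 7.34e-06). Those that fell were Ephb2, an ephrin receptor, and Lrrc4b, a ligand of LAR-type phosphatases (log2 folds of -0.64 and -0.46; limma block adjusted p = 0.00847 and 0.0339). Lrrc4c, Ephb2 and Lrrc4b fall outside the naming rule and were named with their values known.

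Of 24 resolved secreted and extracellular organizers 3 rose and 0 fell. Nptx2, a pentraxin that clusters AMPA receptors, had deposited means of 325 under DMSO and 3765 under bicuculline and rose by the authors' deposited table (their adjusted p = 9.08e-07); it was the 1 gene of the organizer lists called there. C1ql3, a ligand of the adhesion receptor Bai3, stood at 3422 and 1026 normalized reads under DMSO and 6963 and 2519 under bicuculline (log2 fold 1.16 ± 0.17, SE, n = 2; limma block adjusted p = 3.88e-10). Thbs1, a glia-derived synaptogenic factor, had a log2 fold of 1.52 (limma block adjusted p = 3.59e-08). Of 9 resolved adhesion G protein-coupled receptors and teneurins Bai1 rose (0.51; limma block adjusted p = 0.0105) and Bai3 fell (-0.60; limma block adjusted p = 0.0075).

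Of 11 tested receptors that bind members, 1 rose and 3 fell. Rtn4r, the Nogo receptor that pairs with Lingo1, had a log2 fold of -0.85 ± 0.18 (SE, n = 2; limma block adjusted p = 0.000112). Of the Flrt receptors, Unc5b rose (0.86; limma block adjusted p = 0.00142) and Unc5a fell (-0.53; limma block adjusted p = 0.0218), and Grm7, a presynaptic glutamate receptor bound by Elfn proteins, fell (-0.57; limma block adjusted p = 0.0188). Of 19 resolved cytoplasmic partners 3 rose, the liprin gene Ppfia1 (log2 fold 1.02), the scaffold genes Dlg1 (0.87) and Magi3 (0.62), and Lin7c, of the Cask complex, fell (-0.68), with limma block adjusted p-values of 3.64e-05, 3.14e-05, 0.0104 and 0.00474.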

How the data were processed

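For 2 control and 2 AP bursting libraries of cultured mouse hippocampal neurons, the authors deposited 1 table of 23453 genes. Per the file headers it holds the normalized signal of each group as a mean, the ratio (fold) of AP bursting over basal activity, and an adjusted p-value. TopHat 1.2.0, SAMtools 0.1.19, DESeq 1.12.0 and the mm9 build are named, per the submitters' processing notes. For annotation and read counter the entry is: not given in the sources used here. Libraries were not strand-specific, per the labels' protocols. The members and gene lists were chosen with earlier results of these data known.

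The table turned out to hold no counts per library, so the planned count test was not run and the deposited adjusted p was used, with a threshold of 0.05. Log2 folds were computed from the deposited means. Every mean is a sum of 2 read counts, each multiplied by a constant of its library. Whole counts were sought for it, with an allowance of 1.05 times the printed rounding plus the uncertainty of the constants. This had 1 solution for 23171 control means (98.8%) and 23337 AP bursting means (99.5%), which hold 70.2% and 82.6% of the signal. Ambiguous means started at 10015 (control) and 11362 (AP bursting). As a check, 2000 randomly shifted means per group were searched, and a solution turned up for 6 and 3 of them. These were drawn from low and middle means only, so the check did not cover higher means such as those of Nlgn2, Nlgn3 and Cadm1. Size factors were 1.33 and 0.914 for control and 1.27 and 0.661 for AP bursting, deep library first. No per-sample columns were left out.

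limma 3.58.1 (R 4.3.3) used its variance trend and log2(value + 1), a scale that shrinks the folds of low genes. It covered 20226 resolved genes averaging 1 or more, with two-sided p-values adjusted by Benjamini-Hochberg, once with group alone and once with the library pair as a replicate block. The code was tested on simulated data. The pairing rests on the values: deep minus shallow differences of the groups correlated at r = 0.88 over 12674 genes. Members given in full are those past a test, the 12 of largest deposited fold, and the neurexins, neuroligins and LAR-type phosphatases, except that 1 member is not reported here. Outside the members, up to 4 called genes per list are named. GC content, exon length and span are from GENCODE M21 (GRCm38), matched by gene ID for 43 members and 92.9% of well expressed genes.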

Additional observations from a re-analysis of the deposited data

How the results depend on the processing

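The authors' adjusted p passed 0 members in either direction at 0.05 and at 0.1. Without the block, limma called 0 higher and 0 lower, also with a pseudocount of 0.5, with means of 50 or more, and in leave-one-out fits (0 to 0). With the replicate block 8 members were higher and 1 lower, and so they were with the block and a pseudocount of 0.5, no filter on low values, means of 50 or more, or a GC correction (added after seeing the data). Of all genes, the block alone called 1390 higher and 1234 lower of 20226, and with a pseudocount of 0.5 it called 1383 and 1239. Without the filter 1360 and 1178 of 23162 were called. Means of 50 or more gave 1126 and 960 of 13648, and the GC correction 1319 and 1031 of 18239. The block gave 7 and 0 with a pseudocount of 5 (Ntng2 and Nlgn3 lost), 6 and 4 with scaling to total resolved reads, and 0 and 0 without the trend. Of all 20226 genes, these settings called 1193 higher and 913 lower, 991 and 1904, and 0 and 0, in the same order. Leaving out a library with the block leaves no residual degrees of freedom, and was not run.

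At least 1.5-fold higher by the deposited means were 7 of 40 members (9.52% of all such genes), and 4 of 37 reached 1.5-fold within both pairs (6.11%). Of the 7 members, 4 reached 2-fold, for which the share of all genes was not worked out. The median log2 fold of 0.12 ranged from -0.03 (total-read scaling, where the median gene of the block fit sat at -0.16) to 0.31 (shallow pair). Among 256 alternative values of 16 named members, 9 changed sign, in 5 members without a call; the cause was not tested. Leave-one-out log2 folds without the block ranged from -1.45 to 0.24 for Lingo3, -1.04 to 0.0092 for Lrfn3, -0.62 to 0.40 for Nlgn1 (0.31 without the shallow AP bursting library), -0.0078 to 0.22 for Ptprd and -0.57 to 1.04 for Ptprf (-0.29 without the deep control library). Called members kept their direction but not their size: the same fits ranged from 1.07 to 2.04 for Slitrk2, 0.80 to 1.50 for Flrt3, 0.38 to 1.85 for Lrrtm1, 0.46 to 1.47 for Lrrtm2, 0.29 to 1.98 for Slitrk4, 0.48 to 0.92 for Cbln2, 0.090 to 1.005 for Nlgn2, 0.027 to 0.95 for Ntng2 and -0.91 to -0.10 for Nlgn3. The lowest value came without the shallow AP bursting library for Lrrtm1, Nlgn2, Ntng2 and Cbln2, and without the shallow control library for Slitrk2, Slitrk4, Flrt3 and Lrrtm2; Nlgn3 was nearest 0 without the deep AP bursting library. Total-read scaling with the block gave -0.041 for Ptprd. The deep pair gave -0.043 for Ptprf. Splitting means of 10015 or more is limited by the printed digits.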
